A study of Homo sapiens with 12 samples.

Results

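The genes described here encode the retinoblastoma pocket proteins and the E2F factors they bind, in OCI-AML3 cells, a human acute myeloid leukaemia line that carries an NPM1 mutation. The 10 genes, RB1, RBL1, RBL2, E2F1, E2F2, E2F3, E2F4, E2F7, E2F8 and TFDP1, were taken by symbol from the 26259 genes of the count table, and all 10 were among the 14010 genes that passed the filter on low counts. They were chosen by a reader who had seen results of these same 4 genotypes, above all the low RB1 level, so their own differences are given below as a description with a standard error and without p-values.

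Poly(A) RNA was sequenced in 12 libraries, 3 for each of 4 groups: parental cells (wt) and the clones labelled CD33 KO, CD123 KO and CD33/CD123 KO. CD33 is a myeloid surface receptor that binds sialic acid, and CD123, encoded by IL3RA, is the subunit of the interleukin-3 receptor that gives it its specificity. The edited cells had received Cas9 protein with a guide RNA to CD33, to CD123 or to both by electroporation, and each was then enriched by its lost surface protein and grown from 1 cell, whereas wt was the uncloned parental population. No other treatment separated the groups. Each edited genotype was therefore 1 clone. An effect of the edit cannot be told apart from a property of that clone or from the electroporation, enrichment and cloning of the edited cells. Separate cultures are not stated for the triplicate libraries, so the spread between them, and any p-value, may reflect technical variation alone.

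Pocket proteins bind E2F factors and hold back transcription of genes needed to enter S phase. Cyclin-dependent kinases (CDKs) phosphorylate them in G1, which frees the E2F factors, and CDK inhibitors oppose that step. RB1 mainly binds the activating factors E2F1, E2F2 and E2F3, while RBL1 (p107) and RBL2 (p130) mainly bind E2F4 and form the DREAM complex with the MuvB proteins. E2F7 and E2F8 are atypical repressors that bind DNA without a dimer partner, and TFDP1 is the main partner of the other E2F proteins. RB1 is a tumour suppressor.

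Total counts ran from 15583315 to 61827969 per library. Levels are given as CPM (the count as a share of the library total, scaled to a common round total) after TMM scaling of the library sizes, and as RPKM, the same value divided by the exon length in kilobases, where genes are compared with each other. CD33 mRNA was 0.34 lower on the log2 scale in the CD33 KO clone than in wt (SE 0.06, adjusted p = 6.76e-06, edgeR quasi-likelihood test) and 0.14 lower in the CD33/CD123 KO clone (adjusted p = 0.0392, same test). IL3RA fell by 1.14 in the CD123 KO clone (SE 0.17, adjusted p = 1.54e-05, edgeR) and by 0.70 in the CD33 KO clone, where it was not edited (SE 0.17, adjusted p = 0.00109, edgeR). IL3RA in the CD33/CD123 KO clone differed from wt by -0.01 (SE 0.17, adjusted p = 0.971, edgeR), so mRNA alone does not show the double genotype. Of 12 myeloid markers, 10 exceeded 5 CPM in all 12 libraries, and KIT reached at most 1 count. The summed level of the 12 was 2974 to 3044 CPM in wt, 3815 to 3896 in the CD33 KO, 4600 to 5095 in the CD123 KO and 4275 to 4309 in the CD33/CD123 KO libraries. LYZ, the lysozyme of monocytes and granulocytes, averaged 170, 306, 1624 and 610 CPM, ANPEP (CD13) 27.1, 39.0, 70.4 and 47.8 CPM, and the receptor gene FLT3 120, 43.1, 89.7 and 66.0 CPM in the same order. The myeloid markers did not move together. By mean CPM, SPI1 and CD33 were also highest in the CD123 KO clone, but AZU1 and CEBPA were highest in the CD33 KO clone. ELANE, CSF3R and MPO were highest in the CD33/CD123 KO clone, and PTPRC, like FLT3, in wt. Of 10 markers of other cell types, 4 were at 0 in every library, and PECAM1, which myeloid cells also express, was the only 1 over 5 CPM in every library. The summed level of all 10 was 14.5 to 17.4 CPM in wt, 9.79 to 12.1 in the CD33 KO, 37.0 to 42.3 in the CD123 KO and 13.2 to 17.5 in the CD33/CD123 KO libraries, and PECAM1 alone averaged 14.6, 10.8, 39.5 and 15.5 CPM in that order. The part of these markers in the results below was not tested.

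E2F factors recognise short GC-rich letters near gene starts, and several of the genes described here carry such letters in their own promoters. Windows from 250 bases before to 50 bases after a gene start (RefSeq, GRCh38.p14) were searched on both strands for TTTCCCGC, TTTGGCGC, TTTGCCGC and TTTCGCGC, and none of the matches printed here overlap. At least 1 of these was present in 3.315% of the 35116 windows in the table. They were found for RBL1, E2F1, E2F2, E2F3 and TFDP1. The stretches that hold them are shown 5′ to 3′ on the strand of the gene, with the matched letters in capitals, to show how close the matches lie to the start and to each other.
RBL1, chr20:37095998-37096035, minus strand: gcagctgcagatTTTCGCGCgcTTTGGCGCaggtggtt
E2F1, chr20:33686386-33686430, minus strand: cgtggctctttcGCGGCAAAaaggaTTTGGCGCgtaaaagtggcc
E2F2, chr1:23531256-23531287, minus strand: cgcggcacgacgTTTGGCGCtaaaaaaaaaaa
E2F3, chr6:20401814-20401845, plus strand: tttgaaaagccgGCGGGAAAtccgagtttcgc
TFDP1, chr13:113584621-113584652, plus strand: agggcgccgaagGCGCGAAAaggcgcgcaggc
The RBL1 and E2F1 stretches end 1 base before the start and hold 2 matches each. In E2F1, GCGGCAAA is TTTGCCGC on the other strand. The stretches of E2F2, E2F3 and TFDP1 lie 23 to 54, 34 to 65 and 101 to 132 bases before the start and hold 1 match each. No such letters were in the windows of RBL2, E2F4 and E2F7, which says only that these letters are not there. E2F8 had no entry, and the only entry for RB1 begins 173 kb inside the gene and is not shown.

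RB1 (hg19 chr13:48877883-49056026, plus strand) was the gene of the family whose level differed most between genotypes. It stood at 70.4, 71.1 and 72.8 CPM in the wt libraries, at 34.8, 35.9 and 32.2 CPM in the CD123 KO, at 7.36, 6.41 and 5.72 CPM in the CD33/CD123 KO and at 5.29, 5.25 and 4.76 CPM in the CD33 KO libraries. No pair of groups overlapped, and both clones with a CD33 edit were far below the other groups. The smallest RB1 count behind these values was 99 reads. Against wt, RB1 was 14.0-fold lower in the CD33 KO clone (log2 -3.81, SE 0.07), 10.9-fold lower in the CD33/CD123 KO clone (log2 -3.44, SE 0.08) and 2.09-fold lower in the CD123 KO clone (log2 -1.06, SE 0.06). Of the 14010 genes tested, 312, 643 and 409 had a lower log2 fold change than RB1 in the CD33 KO, CD123 KO and CD33/CD123 KO clones. LPAR6, which lies in an RB1 intron on the opposite strand, reached at most 4 counts in any library.

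**Figure D1:**
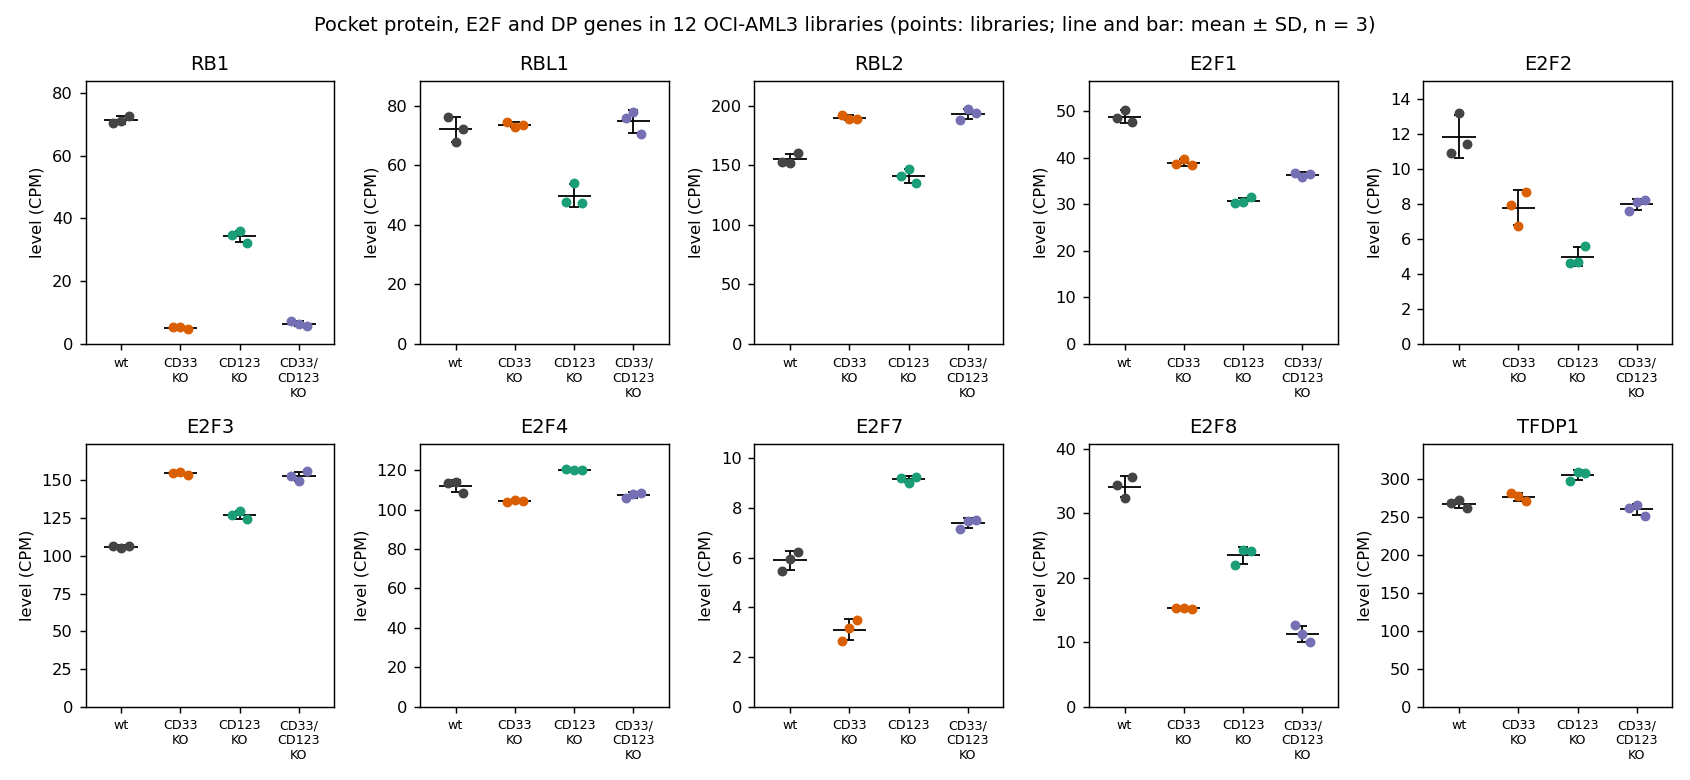
Levels of the 10 genes (y axes, CPM, each starting at 0) in the 12 libraries by genotype (x axes), where points are libraries and lines with bars are the mean ± SD of 3. RB1 stands at 70.4 to 72.8 CPM in wt and at 4.76 to 7.36 CPM in the CD33 KO and CD33/CD123 KO libraries, while E2F4 and TFDP1 stay within narrow ranges.

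RBL1 (chr20:35624755-35724403, minus strand), the S-phase pocket protein gene, stood at 76.2, 67.9 and 72.1 CPM in wt, at 74.6, 73.0 and 73.4 in the CD33 KO, at 75.8, 78.0 and 70.4 in the CD33/CD123 KO and at 47.7, 54.1 and 47.4 in the CD123 KO libraries. The first 3 of these groups overlapped, and only the CD123 KO libraries lay below them. The log2 difference from wt was -0.53 (SE 0.05) in the CD123 KO clone. It was 0.04 (SE 0.05) in the CD33 KO clone and 0.06 (SE 0.05) where both genes were edited, and these small values changed sign when libraries were scaled by their size alone. In bulk RNA, fewer cells in a cycle phase and less RNA per cell cannot be told apart.

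RBL2 (chr16:53468351-53525560, plus strand), the pocket protein gene typical of resting cells, was highest in both clones with a CD33 edit. It stood at 193, 189 and 189 CPM in the CD33 KO and at 189, 197 and 194 CPM in the CD33/CD123 KO libraries, which overlapped. The wt libraries had 153, 152 and 160 CPM and the CD123 KO libraries 141, 147 and 136 CPM. The log2 differences from wt were 0.29 (SE 0.04), 0.32 (SE 0.04) and -0.14 (SE 0.04) in the CD33 KO, CD33/CD123 KO and CD123 KO clones. RBL2 ends inside AKTIP on the opposite strand, and no source used here gives the strand setting of the read counting. AKTIP reached at most 474 counts, against 2458 to 11468 for RBL2.

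Per length, RBL2 was the most abundant pocket protein mRNA in every group, and the make-up of the family differed between genotypes. In wt, RB1, RBL1 and RBL2 stood at 15.0 ± 0.25, 12.4 ± 0.71 and 31.8 ± 0.93 RPKM (SD, n = 3). RB1 supplied 25.3% ± 0.44 of the summed pocket protein RPKM in wt, 16.1% ± 0.30 in the CD123 KO, 2.53% ± 0.33 in the CD33/CD123 KO and 2.03% ± 0.10 in the CD33 KO libraries (SD, n = 3). RBL2 supplied 53.7% ± 0.71 in wt and 73.9% ± 0.03 in the CD33 KO libraries. The sum itself was 59.1 ± 1.39 RPKM in wt, 52.7 ± 0.61 in the CD33 KO, 53.8 ± 1.16 in the CD33/CD123 KO and 44.7 ± 2.17 in the CD123 KO libraries. The CD123 KO clone thus had the lowest sum, although its RB1 level was above that of the other clones.

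Of the activating factors, E2F1 and E2F2 were lower and E2F3 was higher than wt in all 3 clones. E2F1 (chr20:32263292-32274210, minus strand) stood at 48.6, 50.3 and 47.5 CPM in wt, at 38.5, 39.7 and 38.4 in the CD33 KO, at 36.8, 35.8 and 36.4 in the CD33/CD123 KO and at 30.4, 30.5 and 31.5 in the CD123 KO libraries. No pair of groups overlapped. The log2 differences of E2F1 from wt were -0.33 (SE 0.05), -0.43 (SE 0.05) and -0.67 (SE 0.05) in that order of clones. The 10 tested neighbours of E2F1 had medians of -0.03, -0.43 and -0.11 in the same order. The part of such neighbouring changes in the E2F1 values was not tested.

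E2F2 (chr1:23832920-23857712, minus strand), the least abundant activator, stood at 10.9, 13.2 and 11.4 CPM in wt. The CD33/CD123 KO libraries had 7.62, 8.09 and 8.21 CPM and the CD33 KO libraries 7.91, 6.72 and 8.71 CPM, and these groups overlapped. The CD123 KO libraries were lowest, at 4.63, 4.70 and 5.62 CPM, which is 2.39-fold below wt (log2 -1.26, SE 0.11). The log2 differences from wt were -0.61 (SE 0.11) in the CD33 KO and -0.59 (SE 0.12) in the CD33/CD123 KO clone.

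E2F3 (chr6:20402137-20493945, plus strand) stood at 107, 105 and 107 CPM in wt and at 127, 130 and 124 CPM in the CD123 KO libraries. It reached 155, 156 and 153 CPM in the CD33 KO and 153, 150 and 156 CPM in the CD33/CD123 KO libraries, which overlapped. The log2 differences from wt were 0.54 (SE 0.04), 0.53 (SE 0.04) and 0.26 (SE 0.04) in the CD33 KO, CD33/CD123 KO and CD123 KO clones. The whole of chromosome 6 was shifted in the same order: its 612 tested genes had median log2 differences of 0.58, 0.55 and 0.37. E2F3 lay slightly below the median of its own chromosome in each clone. The part of that shift in the E2F3 values was not tested.

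Per length, E2F3 made up a larger part of the activators in each clone than in wt. E2F3 supplied 50.3% ± 1.13 of the summed E2F1, E2F2 and E2F3 RPKM in wt, 65.3% ± 0.20 in the CD33 KO, 66.6% ± 1.06 in the CD123 KO and 66.4% ± 0.30 in the CD33/CD123 KO libraries (SD, n = 3). E2F1 supplied 44.2% ± 0.71 in wt and 30.2% ± 0.36 to 31.4% ± 0.40 in the clones. The sum was 40.9 ± 0.52 RPKM in wt, 45.9 ± 0.30 in the CD33 KO, 44.6 ± 0.73 in the CD33/CD123 KO and 37.0 ± 0.29 in the CD123 KO libraries.

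E2F4 and TFDP1 varied least in the family. E2F4 (chr16:67226068-67232821, plus strand), the main E2F of DREAM, stood at 113, 114 and 109 CPM in wt, at 104, 105 and 104 in the CD33 KO, at 106, 108 and 108 in the CD33/CD123 KO and at 120, 120 and 120 in the CD123 KO libraries. Its log2 differences from wt were -0.10, -0.06 and 0.10 (SE 0.04 each). TFDP1 (chr13:114239003-114295788, plus strand) stood at 267, 271 and 261 CPM in wt, at 281, 277 and 270 in the CD33 KO, at 262, 266 and 251 in the CD33/CD123 KO and at 297, 309 and 308 in the CD123 KO libraries. For TFDP1 the CD123 KO group alone did not overlap wt, and it was higher by 0.19 on the log2 scale (SE 0.04). The 240 tested genes of chromosome 13 had the same median there, 0.19, and 9 of the 10 tested neighbours of TFDP1 were higher (adjusted p under 0.05, edgeR, median 0.42). The part of that shift in the TFDP1 value was not tested. TFDP1 differed by 0.05 in the CD33 KO clone and by -0.04 where both genes were edited (SE 0.04 each), and the former changed sign with scaling by library size alone. TFDP1 was the most abundant of the 10 mRNAs per length, at 99 ± 1.87 RPKM in wt, followed by E2F4 at 53.4 ± 1.41 RPKM (SD, n = 3).

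**Figure D2:**
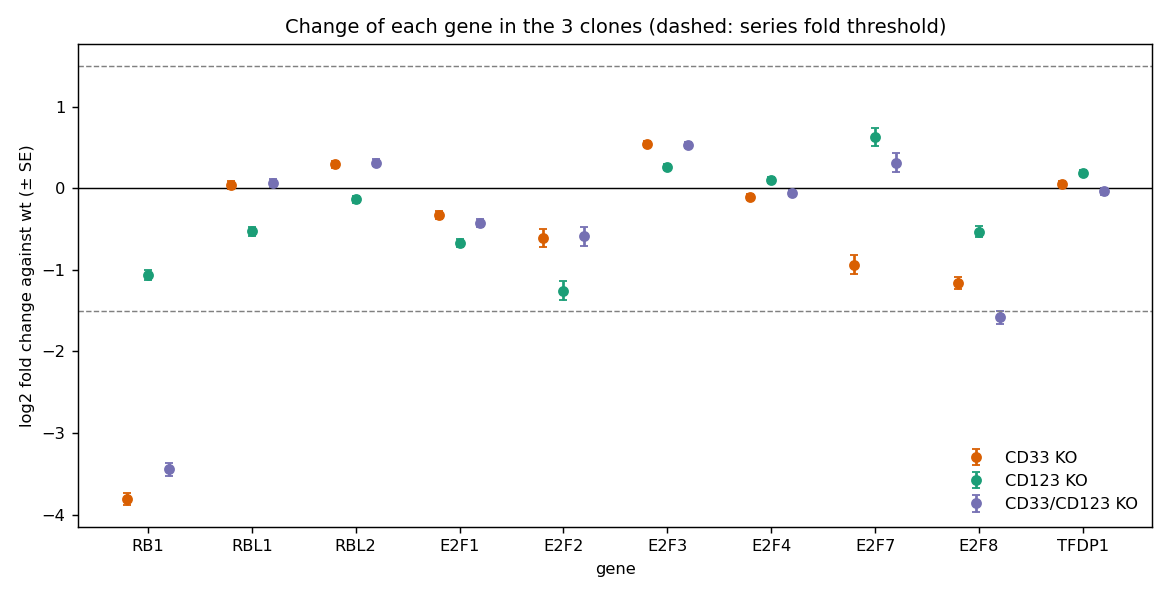
Log2 fold change of each of the 10 genes against wt (y axis, bars are ± SE of the edgeR fit) in the CD33 KO, CD123 KO and CD33/CD123 KO clones, with dashed lines at ±1.5. RB1 lies below the lower line in both clones with a CD33 edit, E2F8 in the CD33/CD123 KO clone only, and E2F7 lies on opposite sides of 0 in the CD33 KO and CD123 KO clones.

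The atypical repressors E2F7 and E2F8 did not vary together. E2F8 (chr11:19245610-19263202, minus strand) stood at 34.5, 32.4 and 35.6 CPM in wt, at 22.0, 24.3 and 24.2 in the CD123 KO, at 15.3, 15.4 and 15.1 in the CD33 KO and at 12.6, 11.3 and 10.1 in the CD33/CD123 KO libraries, with no overlap between groups. Its log2 differences from wt were -0.53 (SE 0.07), -1.16 (SE 0.07) and -1.58 (SE 0.08) in that order, the last being 2.99-fold lower. E2F7 (chr12:77415026-77459360, minus strand) stood at 5.48, 5.95 and 6.24 CPM in wt, at 2.64, 3.18 and 3.49 in the CD33 KO, at 7.15, 7.49 and 7.52 in the CD33/CD123 KO and at 9.22, 9.01 and 9.25 in the CD123 KO libraries. These groups did not overlap either, and wt lay between the CD33 KO clone and the other clones. The log2 differences of E2F7 from wt were -0.94 (SE 0.12), 0.31 (SE 0.12) and 0.63 (SE 0.11). E2F8 supplied 89.3% ± 0.70 of the summed E2F7 and E2F8 RPKM in wt and 68.8% ± 2.95 in the CD33/CD123 KO libraries (SD, n = 3). That sum was 9.63 ± 0.44 RPKM in wt and 4.14 ± 0.29 in the CD33/CD123 KO libraries.

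The rule of the series for a changed gene is an adjusted p under 0.05 together with a log2 fold change beyond 1.5 in size. By that rule 1 of the 10 genes was called in the CD33 KO clone (RB1), where 8.45% of all tested genes were, none in the CD123 KO clone, against 5.35% (none by DESeq2 or limma-voom either), and 2 in the CD33/CD123 KO clone (RB1 and E2F8), against 9.21%. At an adjusted p under 0.05 alone, the CD33 KO clone had 2 higher and 6 lower, beside 30.6% and 32.5% of all genes. The CD123 KO clone had 4 higher and 6 lower, beside 29.6% and 29.9%, and the CD33/CD123 KO clone 3 higher and 4 lower, beside 28.8% and 29.8%. The libraries of wt and clone did not overlap for 8, 10 and 8 of the 10 genes in the CD33 KO, CD123 KO and CD33/CD123 KO clones, beside 69.9%, 64.3% and 61.8% of all genes. Since the genes were chosen with these contrasts known, nothing is read from the counts. The 3 comparisons share the wt libraries.

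Setting the clones against each other placed the CD33/CD123 KO clone near the CD33 KO clone for most of the family. Between these clones the log2 difference was at most 0.10 in size for RBL1, RBL2, E2F1, E2F2, E2F3, E2F4 and TFDP1. RB1 was 0.37 higher (SE 0.09), E2F7 was 1.25 higher (SE 0.12) and E2F8 differed by -0.42 (SE 0.08) in the CD33/CD123 KO clone. None of the 10 genes passed the rule of the series there by edgeR, DESeq2 or limma-voom, where 3.18% of all genes did. Against the CD123 KO clone, RB1 was 5.22-fold lower in the CD33/CD123 KO clone (log2 -2.38, SE 0.08) and was the only 1 of the 10 past the rule, beside 7.64% of all genes. The CD33 KO clone differed from the CD123 KO clone past the rule in 2 genes, RB1 (log2 -2.75, SE 0.07) and E2F7 (log2 -1.56, SE 0.11), beside 7.45% of all genes. Without the first CD33 KO library the E2F7 difference was -1.45 and no longer past the rule.

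The nearest genes around RB1 did not show a difference of its size. The 5 tested genes on each side of RB1, from ESD to SETDB2, had median log2 differences from wt of -0.01, 0.16 and 0.04 in the CD33 KO, CD123 KO and CD33/CD123 KO clones, and single genes ranged from -0.47 to 0.85. ITM2B, which ends upstream of RB1, averaged 99.7 CPM in wt, 98.2 in the CD33/CD123 KO, 84.2 in the CD33 KO and 117 in the CD123 KO libraries. RCBTB2, the next gene downstream, differed by -0.47, 0.67 and 0.07 in the CD33 KO, CD123 KO and CD33/CD123 KO clones. Its adjusted p was 0.000124, 7.74e-07 and 0.541 (edgeR). Within 3 Mb on each side, the 34 other tested genes had medians of 0.05, 0.08 and 0.03. The extremes in this window were -1.48 for KIAA0226L in the CD33 KO clone, 1.40 for DLEU7 in the CD123 KO clone, which exceeds RB1 in size there, and 2.41 for CPB2 in the CD33/CD123 KO clone. These were genes at low levels, with means over the 12 libraries of 1.70, 0.31 and 0.21 CPM, against 29.3 CPM for RB1. Over the 240 tested genes of chromosome 13 the medians were 0.03, 0.19 and -0.01. Searched against the spliced RB1 transcripts of GENCODE, the CD33 and CD123 guides had at least 9 and 8 mismatches at any place followed by NGG. Introns, their junctions with exons and the promoter were not searched. The cause of the RB1 differences was not tested.

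**Figure D3:**
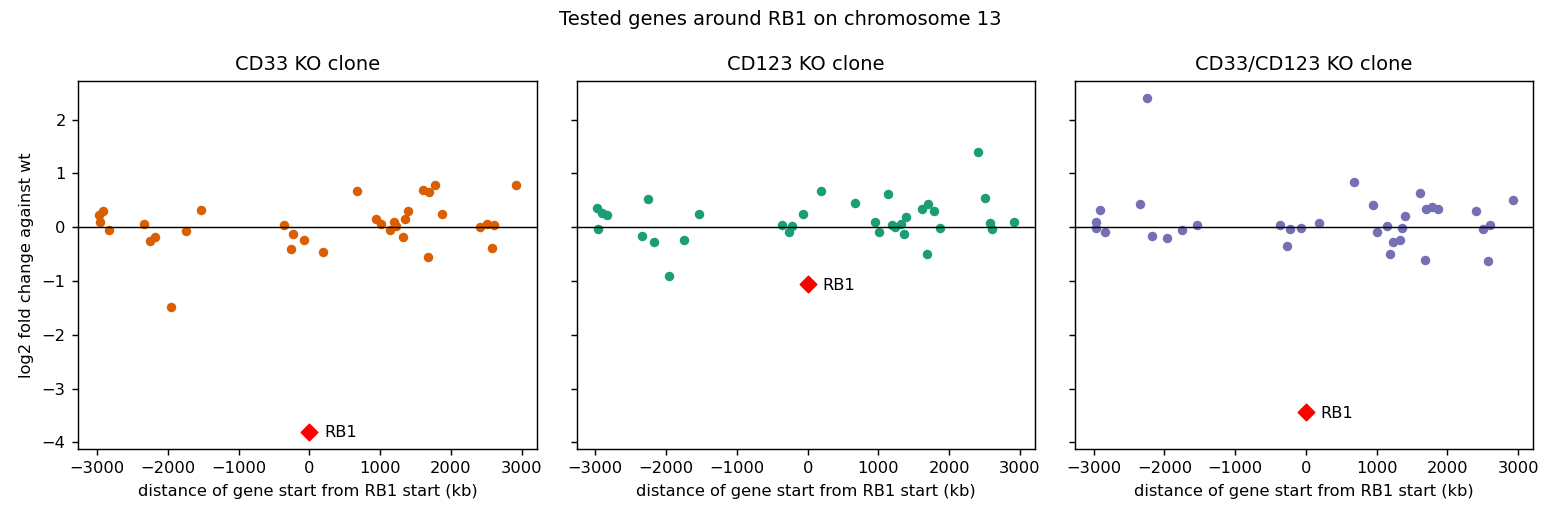
Log2 fold change against wt (y axis) of the tested genes whose start lies within 3000 kb of the start of RB1 (x axis, distance in kb), 1 panel per clone, with RB1 as a red diamond and the 34 other genes as points. RB1 lies at -3.81, -1.06 and -3.44, while the medians of the other genes are 0.05, 0.08 and 0.03.

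For the 4 genes whose group means spanned at least 1 log2 unit, the genes with the most similar pattern were sought among tested genes reaching 5 CPM, by the root mean square distance between their centred log2 means over the 4 groups. Nearest to RB1 were IGFBP3, a binding protein of insulin-like growth factors (distance 0.13 log2 units), LOC729737 (0.16) and GSN, the actin-severing protein gelsolin (0.20). IGFBP3 averaged 6.26 CPM in wt, 3.14 in the CD123 KO, 0.677 in the CD33/CD123 KO and 0.475 in the CD33 KO libraries. Nearest to E2F2 were ABCB4 (0.04), ZNF395 (0.05) and DNM3 (0.07). Nearest to E2F7 were ARID5A (0.06), MDM2, the ubiquitin ligase of p53 (0.08), and CDKN1A, the CDK inhibitor p21 (0.12). MDM2 averaged 212 CPM in wt, 291 in the CD33/CD123 KO, 125 in the CD33 KO and 325 in the CD123 KO libraries. Nearest to E2F8 were BAIAP2 (0.08), NEGR1 (0.10) and CASP6 (0.10). The likeness rests on 4 group means.

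The other E2F and DP genes were few. E2F5, a DREAM-type E2F, rose in every clone, from 6.23, 6.68 and 5.77 CPM in wt to 16.4, 16.0 and 16.5 in the CD33 KO, 12.7, 13.3 and 12.9 in the CD123 KO and 13.0, 11.4 and 12.2 in the CD33/CD123 KO libraries. Its log2 differences were 1.38, 1.05 and 0.97 (SE 0.09 each, adjusted p = 2.19e-13, 1.36e-10 and 1.17e-09, edgeR), while the 469 tested genes of its chromosome 8 had medians of -0.34, -0.05 and -0.33. TFDP2, the other DP partner, rose by 0.41 in the CD33 KO and 0.67 in the CD33/CD123 KO clone (adjusted p = 1.22e-07 and 3.58e-11, edgeR), and its difference in the CD123 KO clone was -0.10 (adjusted p = 0.114). E2F6, a repressor linked to Polycomb proteins, differed by 0.03, 0.08 and -0.18 (adjusted p = 0.799, 0.380 and 0.0761, edgeR). TFDP3 had 0 counts in all 12 libraries, which allows up to 0.0504 to 0.187 CPM per library (3 counts, counting error only).

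The CDK inhibitor genes, which act upstream of the pocket proteins, held the largest single rise among the 9 pathway lists, that of CDKN2A. Counts of list genes here and below are at an adjusted p under 0.05 (edgeR), which 30.6%, 29.6% and 28.8% of all genes passed as higher, and 32.5%, 29.9% and 29.8% as lower, in the CD33 KO, CD123 KO and CD33/CD123 KO clones. Of 6 inhibitors tested, the CD33 KO clone had 2 higher and 4 lower, the CD123 KO clone 4 higher and 1 lower, and the CD33/CD123 KO clone 4 higher and 2 lower. CDKN2A, which encodes INK4a and ARF from shared exons that gene counts do not separate, stood at 11.9, 9.01 and 6.87 CPM in wt. It reached 131, 128 and 132 CPM in the CD33 KO, 187, 182 and 167 in the CD123 KO and 238, 249 and 274 in the CD33/CD123 KO libraries. These are rises of 3.88, 4.33 and 4.83 on the log2 scale (SE 0.13 each, adjusted p = 1.35e-09, 9.02e-10 and 2.86e-10, edgeR), and no clone library overlapped wt. CDKN2C, another inhibitor of CDK4 and CDK6, rose from 32.1 ± 1.91 CPM in wt to 104 ± 4.13, 142 ± 8.05 and 124 ± 7.72 CPM (SD, n = 3) in the CD33 KO, CD123 KO and CD33/CD123 KO clones. Its log2 differences were 1.70, 2.15 and 1.95 (adjusted p = 1.62e-18, 5.38e-20 and 1.85e-19, edgeR).

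CDKN1A and CDKN2B fell in the CD33 KO clone and rose in the other clones, whereas CDKN2D fell in all 3. CDKN1A (p21) stood at 150, 138 and 136 CPM in wt, 65.8, 62.1 and 62.3 in the CD33 KO, 233, 221 and 220 in the CD123 KO and 153, 151 and 162 in the CD33/CD123 KO libraries. It fell by 1.15 in the CD33 KO clone and rose by 0.67 and 0.14 in the CD123 KO and CD33/CD123 KO clones (adjusted p = 8.81e-18, 6.04e-13 and 0.00804, edgeR). CDKN2B, the neighbour of CDKN2A, fell by 1.22 and rose by 1.48 and 1.18 in the same order (adjusted p = 5.30e-08, 2.00e-10 and 2.40e-08, edgeR), at levels of 1.29 to 10.9 CPM. CDKN1B (p27) fell by 0.36 in the CD33 KO and 0.32 in the CD33/CD123 KO clone (adjusted p = 3.22e-09 and 7.33e-08, edgeR) and differed by -0.04 in the CD123 KO clone (adjusted p = 0.300). CDKN2D (p19), an inhibitor of CDK4 and CDK6, fell by 0.73, 0.59 and 1.07 in the CD33 KO, CD123 KO and CD33/CD123 KO clones (adjusted p = 5.95e-05, 0.000830 and 2.67e-06, edgeR), at levels of 2.14 to 6.91 CPM. CDKN1C reached at most 16 counts and was not tested. The chromosome 9 genes as a whole had medians of -0.03, 0.01 and -0.01, and CDKN1A lies on the shifted chromosome 6.

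**Figure D4:**
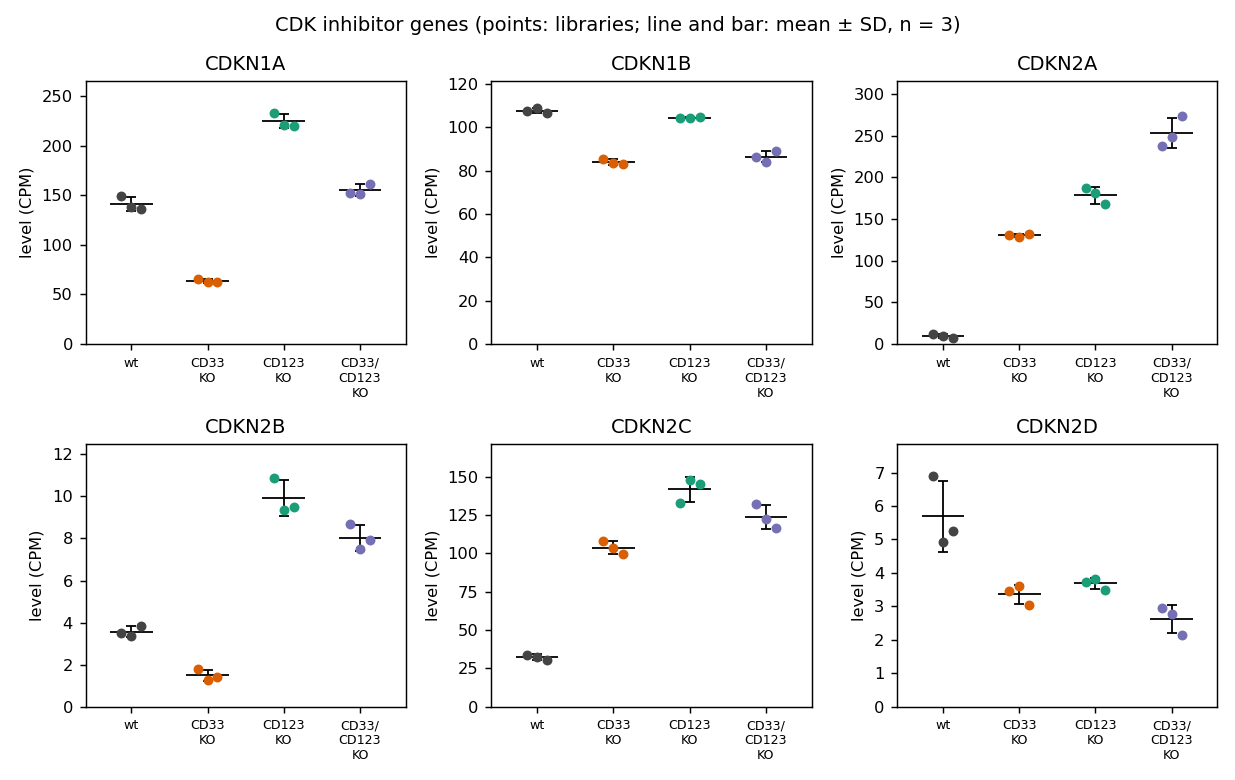
Levels of 6 CDK inhibitor genes (y axes, CPM, each starting at 0) in the 12 libraries by genotype (x axes), where points are libraries and lines with bars are the mean ± SD of 3. CDKN2A and CDKN2C lie above wt in all 9 clone libraries, and CDKN1A and CDKN2B are below wt in the CD33 KO and above it in the CD123 KO libraries.

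Target genes of the family were mostly lower than wt in all 3 clones. Of 35 G1/S genes bound by E2F, the CD33 KO clone had 23 lower and 4 higher, the CD123 KO clone 33 lower and none higher, and the CD33/CD123 KO clone 23 lower and 4 higher. The all-gene shares were 29.8% to 32.5% lower and 28.8% to 30.6% higher. The cyclin E genes CCNE1 and CCNE2 were counted in the G1 list below and not in this list. At an unadjusted p under 0.05, and by DESeq2 and limma-voom, all 35 were lower in the CD123 KO clone and none was higher. Their median log2 differences were -0.30, -0.67 and -0.22, against -0.02, 0.01 and -0.01 over all tested genes. TK1, thymidine kinase, fell by 0.86, 1.12 and 0.87 in the CD33 KO, CD123 KO and CD33/CD123 KO clones (adjusted p = 1.35e-15, 2.66e-17 and 2.88e-15, edgeR). UHRF1, a partner of maintenance DNA methylation, fell by 0.40, 0.77 and 0.55 (adjusted p = 2.25e-09, 1.32e-14 and 8.71e-12, edgeR). MCM10, a replication initiation factor, fell by 0.34, 0.99 and 0.47, and FEN1, the flap endonuclease, by 0.50, 0.61 and 0.44. MCM7, a subunit of the replicative helicase, fell by 0.88 in the CD123 KO clone (adjusted p = 7.83e-16, edgeR) and differed by -0.04 in the CD33 KO and -0.06 in the CD33/CD123 KO clone (adjusted p = 0.343 and 0.233, edgeR). The CD123 KO clone, with the lowest medians, also had the highest LYZ, ANPEP and PECAM1 levels, but not the highest AZU1, ELANE, CEBPA or CSF3R. The part of these markers in the target genes was not tested.

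Some of these targets went the other way. MCM3, another helicase subunit, rose by 0.68 in the CD33 KO and 0.56 in the CD33/CD123 KO clone (adjusted p = 2.31e-14 and 1.67e-12, edgeR) and differed by -0.08 in the CD123 KO clone (adjusted p = 0.0604). It lies on chromosome 6, with the medians given beside E2F3. CDT1, the replication licensing factor, was named after its values were seen. It stood at 112, 114 and 107 CPM in wt, 218, 233 and 216 in the CD33 KO and 90.6, 92.3 and 86.9 in the CD123 KO libraries. The CD33/CD123 KO libraries were uneven, at 143, 143 and 203 CPM. Its log2 differences were 1.00, -0.31 and 0.55 (adjusted p = 7.56e-05, 0.0604 and 0.00447 in the CD33 KO, CD123 KO and CD33/CD123 KO clones, edgeR). Without the third CD33/CD123 KO library the last difference was 0.36 (adjusted p = 2.30e-08, edgeR), and the adjusted p in the CD123 KO clone was 0.0297 by DESeq2 and 0.00651 by limma-voom.

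Of 24 G2/M genes regulated by DREAM and MYBL2, 21 were lower in the CD33 KO, 23 in the CD123 KO and 21 in the CD33/CD123 KO clone. None was higher in any clone by edgeR (adjusted or unadjusted p under 0.05), DESeq2 or limma-voom. The medians were -0.31, -0.77 and -0.38. MKI67, the proliferation marker Ki-67, stood at 395, 340 and 384 CPM in wt, 235, 231 and 256 in the CD33 KO, 119, 120 and 106 in the CD123 KO and 263, 230 and 234 in the CD33/CD123 KO libraries. It was the only gene of this list past the rule of the series, in the CD123 KO clone, by -1.70 (SE 0.07, adjusted p = 1.87e-11, edgeR). PLK1, a mitotic kinase, fell by 0.55, 0.97 and 0.63 (adjusted p = 2.88e-11, 1.50e-15 and 5.50e-12, edgeR). BIRC5 (survivin) fell by 0.42, 0.72 and 0.47, and CDC20, an activator of the anaphase-promoting complex, by 0.50, 0.82 and 0.49. CDC25B, a phosphatase that activates CDKs, fell by 0.15, 0.99 and 0.11, and TOP2A, a topoisomerase, by 0.30, 0.94 and 0.38.

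The promoters of both target lists hold the searched letters at different shares. Of the 28 G1/S genes with a window, 16 (57.14%) held at least 1 of the E2F words, while of the 21 G2/M genes with a window 3 (14.29%) did. TTTGAA, the letters of the cell-cycle homology region read by MuvB, was found in 14 (66.67%) of the G2/M genes and in 1 (3.571%) of the G1/S genes. Of the other lists with windows for at least 80% of their genes, the E2F words and TTTGAA were in 0 and 0 of 6 CDK inhibitors, 1 and 1 of 14 corepressors, and 1 and 4 (44.44%) of 9 turnover genes. By gene, the shares over the whole table of 27305 genes were 3.992% for the E2F words and 18.17% for TTTGAA.

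Of the 8 MuvB, MYB and FOXM1 genes, the CD33 KO clone had 3 higher and 5 lower, the CD123 KO clone 1 higher and 6 lower, and the CD33/CD123 KO clone 2 higher and 4 lower, with medians of -0.14, -0.35 and -0.08. Over all genes, 28.8% to 30.6% were higher and 29.8% to 32.5% lower. MYBL2, which activates G2/M genes with MuvB and is itself an E2F target, stood at 200, 205 and 197 CPM in wt, 146, 141 and 140 in the CD33 KO, 114, 118 and 112 in the CD123 KO and 136, 142 and 132 in the CD33/CD123 KO libraries. It fell by 0.50, 0.81 and 0.56 (adjusted p = 1.47e-11, 2.70e-15 and 3.32e-12, edgeR). FOXM1 fell by 0.13, 0.59 and 0.24 in the same order (adjusted p = 0.00329, 8.53e-13 and 5.88e-06, edgeR). LIN54, the DNA-binding MuvB subunit, fell by 0.47, 0.51 and 0.55. LIN9, another subunit, rose by 0.24 in the CD33 KO and 0.12 in the CD33/CD123 KO clone and fell by 0.19 in the CD123 KO clone (adjusted p = 0.000123, 0.0416 and 0.00189, edgeR).

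**Figure D5:**
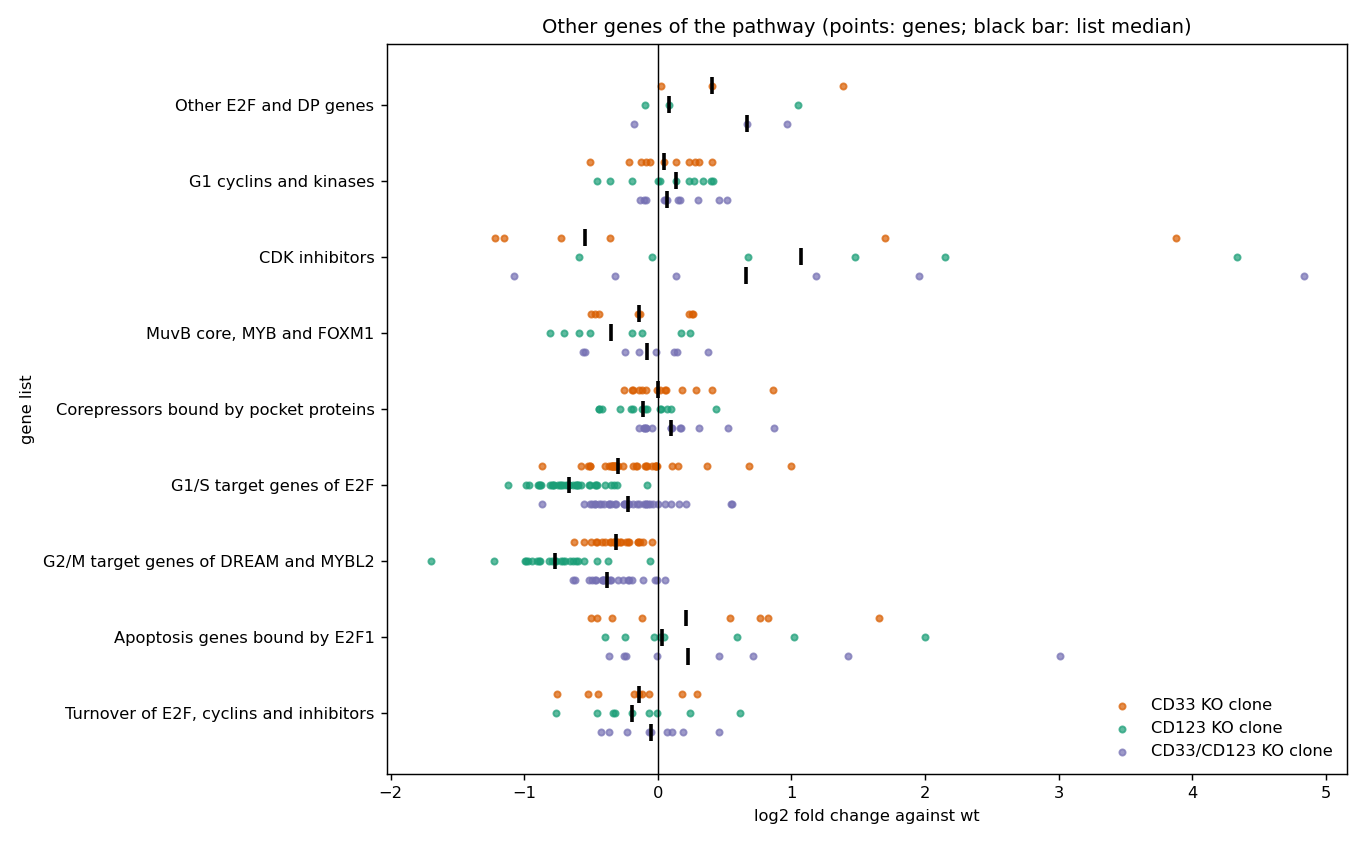
Log2 fold change against wt (x axis) of the tested genes of 9 pathway lists (y axis) in the 3 clones, where points are genes and black bars are list medians. The G1/S and G2/M target lists lie mostly below 0, with medians of -0.67 and -0.77 in the CD123 KO clone, and CDKN2A is the point above 3.5 in each clone.

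The G1 list holds the cyclins and kinases that phosphorylate pocket proteins, the CDK-activating kinase (CDK7, CCNH and MNAT1) and the phosphatase CDC25A, and its genes differed by at most 0.52 in size from wt. Of 11 tested, 5, 6 and 5 were higher and 3, 3 and 1 lower in the CD33 KO, CD123 KO and CD33/CD123 KO clones, beside all-gene shares of 28.8% to 30.6% higher and 29.8% to 32.5% lower. The list had medians of 0.05, 0.13 and 0.07 and no gene past the rule of the series by edgeR (adjusted or unadjusted p), DESeq2 or limma-voom. CCND3 (cyclin D3, on chromosome 6) rose by 0.41 in the CD33 KO and 0.52 in the CD33/CD123 KO clone (adjusted p = 1.87e-09 and 2.44e-11, edgeR) and by 0.13 in the CD123 KO clone. CDK6 rose by 0.23, 0.40 and 0.46 and CDK7 by 0.31, 0.41 and 0.30 in the CD33 KO, CD123 KO and CD33/CD123 KO clones. CCNE2 (cyclin E2) fell by 0.51 in the CD33 KO clone (adjusted p = 8.46e-07, edgeR) and differed by 0.00 and -0.10 in the others (adjusted p = 0.969 and 0.246). It lies on chromosome 8, whose medians stand beside E2F5. CCNE1 (cyclin E1) rose by 0.23 in the CD123 KO and 0.15 in the CD33/CD123 KO clone (adjusted p = 0.00265 and 0.0484, edgeR). Its CD33/CD123 KO libraries overlapped wt, and it differed by -0.09 in the CD33 KO clone (adjusted p = 0.213, edgeR). CDC25A fell by 0.12, 0.45 and 0.13. CDK2 fell by 0.36 in the CD123 KO clone and differed by -0.05 in the CD33 KO and 0.07 in the CD33/CD123 KO clone (adjusted p = 1.33e-07, 0.276 and 0.216, edgeR). CCND2 reached at most 2 counts.

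Of 14 corepressor genes, whose products pocket proteins recruit, 4, 2 and 7 were higher and 5, 6 and 2 lower in the CD33 KO, CD123 KO and CD33/CD123 KO clones, with medians of 0.00, -0.11 and 0.10. The shares over all genes were 28.8% to 30.6% higher and 29.8% to 32.5% lower, close to the 4 and 5 of 14 in the CD33 KO clone only. More genes were lower than higher in the CD123 KO clone, and more were higher than lower in the CD33/CD123 KO clone. HDAC2, a histone deacetylase gene on chromosome 6, rose by 0.86, 0.43 and 0.87 (adjusted p = 9.51e-17, 1.77e-10 and 1.04e-16, edgeR). KDM5A, a histone demethylase first found as an RB1-binding protein, rose by 0.40 in the CD33 KO and 0.53 in the CD33/CD123 KO clone and differed by 0.07 in the CD123 KO clone (adjusted p = 0.219, edgeR). SMARCA2 rose by 0.29 and 0.31 in those clones and fell by 0.44 in the CD123 KO clone. DNMT1, the maintenance DNA methyltransferase, fell by 0.44 in the CD123 KO and 0.14 in the CD33/CD123 KO clone and differed by -0.09 in the CD33 KO clone (adjusted p = 0.0527, edgeR).

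Of 8 apoptosis genes bound by E2F1, 4, 3 and 4 were higher and 4, 2 and 3 lower in the CD33 KO, CD123 KO and CD33/CD123 KO clones, with medians of 0.21, 0.03 and 0.22. All-gene shares were 28.8% to 30.6% higher and 29.8% to 32.5% lower. TP73, a p53 relative, rose from 26.1, 25.1 and 25.4 CPM in wt to 43.9, 42.7 and 43.0 in the CD33 KO, 105, 99 and 102 in the CD123 KO and 200, 201 and 213 in the CD33/CD123 KO libraries. The groups were far apart, by log2 0.77, 2.00 and 3.01 from wt (SE 0.04 each, adjusted p = 5.68e-14, 3.35e-22 and 3.72e-26, edgeR). PMAIP1 (NOXA) rose by 1.65, 1.02 and 1.42 (adjusted p = 1.64e-18, 1.33e-13 and 1.24e-16, edgeR), and BBC3 (PUMA) by 0.83, 0.60 and 0.72 (adjusted p = 1.85e-12, 2.56e-09 and 1.24e-10, edgeR).

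Of 9 genes for turnover of E2F proteins, cyclins and inhibitors, 2, 2 and 3 were higher and 6, 5 and 3 lower, with medians of -0.14, -0.19 and -0.05, beside 28.8% to 30.6% of all genes higher and 29.8% to 32.5% lower. MDM2 fell by 0.75 in the CD33 KO clone and rose by 0.62 in the CD123 KO and 0.46 in the CD33/CD123 KO clone (adjusted p = 4.26e-14, 4.08e-12 and 9.14e-10, edgeR). CCNF, which targets E2F1 for degradation, fell by 0.52, 0.77 and 0.43 (adjusted p = 1.18e-10, 2.22e-13 and 1.81e-08, edgeR). FZR1, an activator of the anaphase-promoting complex, fell by 0.45, 0.32 and 0.37, and CKS1B, a cofactor in the breakdown of p27, by 0.12, 0.46 and 0.23.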

How the data were processed

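The deposited table holds raw read counts by gene for the 12 libraries and, per the file headers, a Length column with the summed exon length in bases. HISAT2, featureCounts and edgeR, with the build hg19, are named in the submitters' processing notes, without versions. Per the labels' protocols, the libraries were directional and poly(A)-selected. No source used here gives the strand setting of featureCounts.

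Groups followed the genotype labels. All 12 libraries shared 1 fit without covariates, since the labels name no batch. edgeR 4.0.16 in R 4.3.3 gave robust quasi-likelihood F-tests after the filterByExpr filter and TMM scaling, and p-values were adjusted by Benjamini-Hochberg over the 14010 tested genes. CPM and RPKM used TMM-scaled library sizes, and log2 CPM used a prior count of 2. The procedure was tested on simulated data. Total counts of 15583315 to 61827969 set the precision, and counting error alone underlies the limits given for genes at 0.

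The genes and the pathway lists were chosen with earlier results of these data known. From each list, the genes with the 3 smallest adjusted p-values per clone at 5 CPM or more, and those past the rule of the series, were named, with E2F5, E2F6 and TFDP2 in any case. Each gene so named is given in all 3 clones. CDKN1B, CDKN2D, CDT1, CCNE1, the myeloid markers, PECAM1 and the extremes near RB1 were added after their values were seen. Alternatives were DESeq2 1.42.0, limma 3.58.1, other scalings, no filter and leaving out each library. Promoter windows came from RefSeq (GRCh38.p14), of which 9 of the 10 genes had one. Lists with a window for under 80% of their genes were left out of the motif counts.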

Additional observations from a re-analysis of the deposited data

Results flagged for a closer look

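The CD123 edit went with opposite RB1 changes in the absence and presence of the CD33 edit. RB1 was lower in every CD123 KO library than in every wt library (log2 -1.06) and higher in every CD33/CD123 KO library than in every CD33 KO library (log2 0.37). The second change minus the first was 1.43, and the difference was not tested, since RB1 was chosen with these values known. TFDP1 showed the reverse order, 0.19 and -0.09, a difference of -0.28 that was not tested either. E2F2 (-1.26 and 0.02) and RBL1 (-0.53 and 0.02) had differences of 1.28 and 0.55. These were larger in size than that of TFDP1 and smaller than that of RB1, but the CD33 KO and CD33/CD123 KO libraries overlapped for both genes. E2F7 (0.63 and 1.25) and E2F1 (-0.67 and -0.10) kept 1 direction, with differences of 0.62 and 0.57.

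For 3 other named genes the same difference passed the interaction test of edgeR and a log2 size over 1.5, as 6.1% of all tested genes did. These genes were named for differences from wt that rest on the same libraries. Their adjusted p-values are therefore not given, and nothing is read from their passing. CDKN2A rose by 4.33 from wt to the CD123 KO clone and by 0.96 from the CD33 KO to the CD33/CD123 KO clone, a difference of -3.37. CDKN2C rose by 2.15 and 0.26, a difference of -1.90. MKI67 differed by -1.70 and 0.01, a difference of 1.71. Each genotype is 1 clone, so an interaction of the edits and differences between clones cannot be told apart.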

How the results depend on the processing

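No paired analysis was possible because the labels number the libraries in 1 series and give the groups no shared replicate numbers. Over the other tools, scalings and filters and the libraries left out, 839 of 840 log2 differences of the 10 genes and all 252 of the list genes past the rule of the series in a clone and of CDT1 kept their side of that rule and, where past it, their direction, and 335 of 336 counts stayed within 1.5 times. The exception came from leaving out the first CD33 KO library: the E2F7 difference between the CD33 KO clone and the CD123 KO clone was then -1.45, and the genes past the rule of the series ranged from 1 to 2 over the libraries left out. Over 14 alternatives, E2F8 in the CD33/CD123 KO clone ranged from -1.69 to -1.504. It kept its call in all of them, but at the near end it only just passed the threshold of 1.5. Scaling by library size alone moved the median of all genes to -0.13 in the CD33 KO and -0.12 in the CD33/CD123 KO clone, from -0.02 and -0.01, and turned the sign of RBL1 in both and of TFDP1 in the CD33 KO clone. It moved the wt RPKM by over 1 SD for 6 genes, to 15.6 for RB1, 33.2 for RBL2, 18.9 for E2F1, 21.5 for E2F3, 55.7 for E2F4 and 103 for TFDP1. The shallowest counts were those of E2F7, from 88 reads, and RB1, from 99 reads.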
